A study of Mus musculus with 6 samples.

Results

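Heart ventricles of 3.5-week-old male mice of the 129/Sv strain were profiled on Affymetrix Mouse Gene 1.0 ST arrays, with 3 arrays labelled Hspa4-/- and 3 labelled Hspa4+/+, the wild type. Hspa4 is a chaperone gene whose cytosolic product, an Hsp110 protein, acts as a nucleotide exchange factor for Hsp70. The deletion is not restricted to a tissue by any label, the labels give 3 mice for each genotype, and 1 mouse per array is assumed here. The genes described here are nuclear-encoded genes of respiratory complexes II to V. They were taken by gene symbol: Sdha to Sdhd, symbols that start with Uqcr, with Cox and a digit, or with Atp5, and Cyc1 and Cycs. This gave 50 genes with 1 probe set each, of 20239 named genes on the array. By role they were 4 subunits of complex II, 7 of complex III, the electron carrier cytochrome c (1 gene), 17 subunits or isoforms of complex IV, 9 complex IV assembly factors and 12 genes of complex V.

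The respiratory chain sits in the inner mitochondrial membrane. Complex II (succinate dehydrogenase) passes electrons from succinate to ubiquinone, complex III passes them from ubiquinol to cytochrome c, and complex IV (cytochrome c oxidase) passes them to oxygen. Complexes III and IV pump protons as they do so, and complex V (ATP synthase) uses the return of these protons to make ATP, the source of nearly all the ATP of heart muscle. Some subunits of complexes III, IV and V are encoded by mitochondrial DNA, and the genes here are nuclear. After birth, complex IV of heart and skeletal muscle takes up muscle forms of some of its subunits in place of the forms found in most tissues.

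Hspa4 itself set the label check. On the log2 scale, replicates 1, 2 and 3 labelled Hspa4-/- read 9.33, 6.63 and 6.75, against 9.74, 9.50 and 9.48 for those labelled wild type. The array labelled Hspa4-/- replicate 1 therefore read Hspa4 near the wild-type arrays, against its label. Hspa4 differed by −2.01 (SE 0.58; limma, adjusted p = 0.263) with all 6 arrays and by −2.89 (SE 0.10; limma, adjusted p = 9.37e-06) without that array. Xist, the RNA of the inactive X chromosome of female cells, read 7.68 on that array and between 5.51 and 5.69 on the others, although all are labelled male. Counts and medians of gene lists are therefore given over all 6 arrays and over the 5 left without it, and a single gene's value is over 6 arrays unless 5 are named. Defining markers of heart muscle were high on every array, with Myh6 at 12.61 on average on the arrays labelled Hspa4-/- and at 12.52 in wild type. Overall array means lay between 6.76 and 6.77 on the log2 scale, and the SD over probe sets lay between 1.20 and 1.27 on the arrays labelled Hspa4-/- and between 1.19 and 1.25 on the wild-type arrays.

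Most of the 50 genes read slightly higher on the arrays labelled Hspa4-/-, and none passed the test. The difference is in log2 units, Hspa4-/- mean minus wild-type mean by label. It was above 0 in 38 of the 50 genes with 6 arrays, where 45.8% of all named genes were above 0. Its median was 0.11 over the 50 genes and −0.0094 over all named genes, and single genes ranged from −0.36 for the cytochrome c gene Cycs to 0.44 for the complex III gene Uqcrq. With all 6 arrays 0 of 50 had an adjusted p under 0.05 (limma, Benjamini-Hochberg over all named genes), where 0% of all named genes did. The smallest adjusted p among them was 0.249. At an unadjusted p under 0.05, 12 of the 50 were higher, where 5.64% of all named genes were, and 1 was lower, where 5.53% were. Together these were 13 of 50, against 11.2% of all named genes. The 12 became 4 or 5 when replicate 2 or 3 labelled Hspa4-/- or wild-type replicate 1 or 3 was left out, where 2.88% to 4.13% of all named genes were higher. They became 17 without the array labelled Hspa4-/- replicate 1 and 16 without wild-type replicate 2, where 8.55% and 8.53% were.

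**Figure D1:**
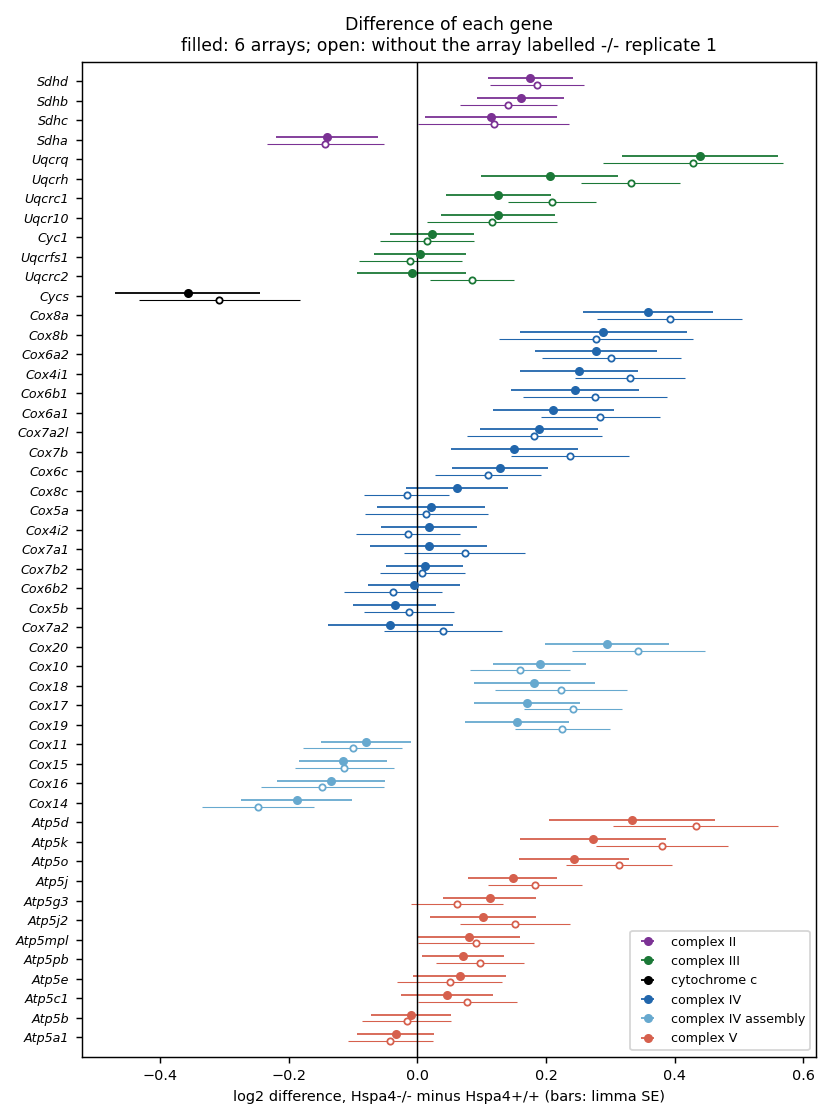
Each point is the log2 difference of a gene between the arrays labelled Hspa4-/- and the wild-type arrays, with limma's SE as the bar, in order of complex. Filled points use 6 arrays and open points leave out the array labelled Hspa4-/- replicate 1. Most points lie right of 0, from −0.36 for Cycs to 0.44 for Uqcrq with 6 arrays.

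Without the array labelled Hspa4-/- replicate 1 the picture was alike. The difference was above 0 in 37 of the 50 genes, where 43.3% of all named genes were, and the median was 0.11, against −0.018 over all named genes. Again 0 of 50 passed, where 0.440% of all named genes did, and the smallest adjusted p was 0.0999 (limma). At an unadjusted p under 0.05, 17 were higher, where 8.55% of all named genes were, and 2 were lower, where 6.36% were. Together these were 19 of 50, against 14.9% of all named genes. The 2 that were lower were Cycs and the assembly factor gene Cox14.

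The background depends on signal level, and 39 of the 50 genes lay in the top 5060 of the 20239 named genes by mean value. Among those 5060 the median difference of all genes was 0.018 with 6 arrays and 0.051 with 5, and 12.3% and 19.5% of them were higher at an unadjusted p under 0.05. The 39 genes had a median of 0.11 with 6 arrays. At the same threshold 12 of all 50 genes were higher with 6 arrays and 17 with 5, and the 39 were not counted apart. Only 3 of the 50 genes lay below the median level of all named genes, namely Cox6b2, Cox7b2 and Cox8c, which are forms of complex IV subunits known from testis. Their differences were each within 1 SE of 0.

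The groups overlapped in 38 of the 50 genes with 6 arrays and in 25 with 5. With 6 arrays, 12 of the 50 (against 15.1% of all named genes) had groups free of overlap, with 10 higher, where 6.08% of all named genes were, and 2 lower, where 9.07% were. The 10 were Sdhd, Sdhb, Uqcrq, Cox8a, Cox6a2, Cox6c, Cox20, Cox10, Atp5o and Atp5j. The 2 were Cycs and the ATP synthase gene Atp5a1, whose difference was only −0.034 (SE 0.060). With 5 arrays, overlap was absent in 25 of the 50, against 33.3% of all named genes: 22 were higher, where 14.4% were, and 3 were lower, where 18.9% were.

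**Figure D2:**
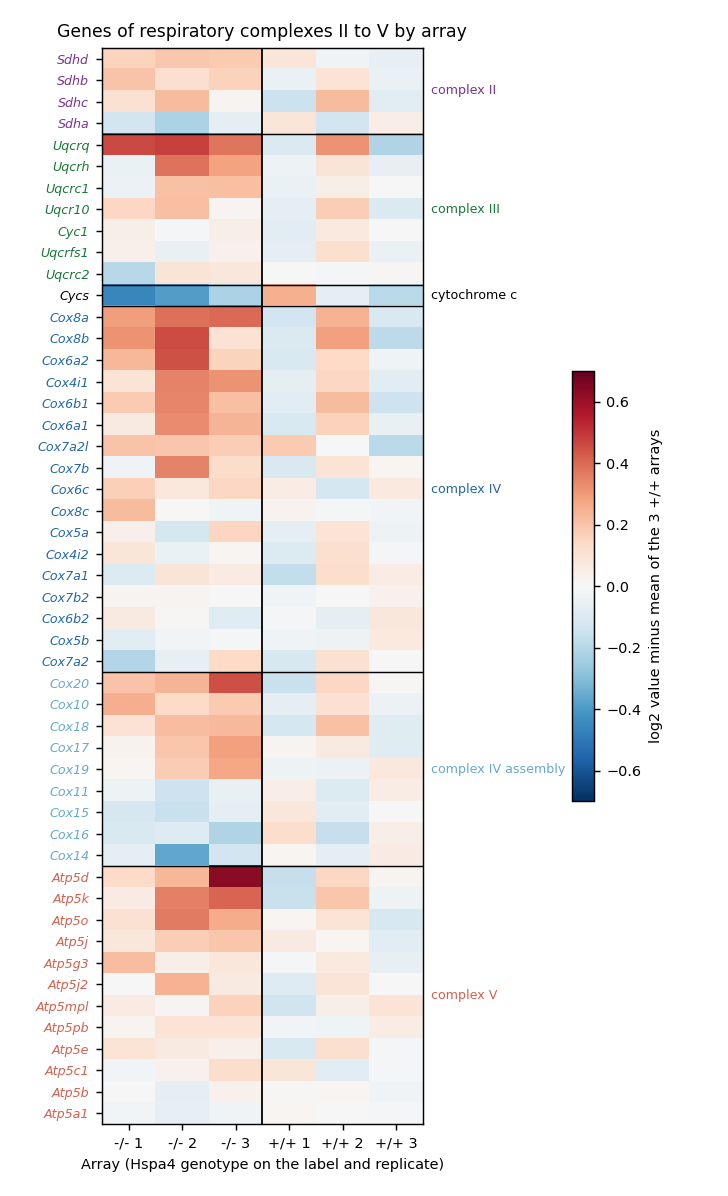
Rows are the 50 genes in order of complex and columns are the 6 arrays. Colour gives the log2 value minus the mean of the 3 wild-type arrays, red above and blue below. The arrays labelled Hspa4-/- are mostly red, wild-type replicate 2 shares part of that red, and Cycs is blue on the arrays labelled Hspa4-/-.

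Promoter sequences of RefSeq (build GRCm38.p6) were at hand for 37 of the 50 genes, and the 250 bases before each start were searched on both strands. Nuclear respiratory factor 1 (NRF1) and the ETS-family factor GABP are known regulators of respiratory genes, as are the estrogen-related receptors (ERR), and CREB binds the cAMP response element. The NRF1 letters, GCGCA and GCGC with any base between them, were found in 5 of 37 genes (13.5%), against 4.23% of the 27025 genes with a promoter in the table. The ETS letters CCGGAAG were found in 9 of 37 (24.3%), against 7.83% of all. The ERR letters TCAAGGTCA were found in Atp5g3 alone (2.7% of 37), against 0.422% of all. The cAMP response element TGACGTCA, searched after the Cycs window had been read, was found in Cycs and Uqcrfs1 (5.41%), against 1.77% of all. YY1 letters (AAGATGG) were in 5.41% and Sp1 letters (GGGCGG) in 43.2% of the 37, against 5.18% and 35.4% of all. Where a gene has several listed starts, a match at any of them was counted.

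Windows of 1 gene from each complex that read higher, and of Cycs, which read lower, are printed 5′ to 3′ on the gene's own strand and end at the base before the start. They are shown because they hold the searched letters. Capitals mark the NRF1, ETS, ERR or cAMP response element letters, on either strand, so that CTTCCGG is the ETS motif read from the other strand. A match is a description of the sequence, and whether letters go with direction was not tested. Letters also occurred in genes that read lower. The Sdha window, not printed, holds NRF1 letters at 3 places, and Sdha differed by −0.14. The Cox16 windows hold ETS letters, and Cox16 differed by −0.13. The Sdhd window (chr9:50603850-50604099, minus strand) holds NRF1 and ETS letters, and the Uqcrh window (chr4:116075071-116075320, minus strand) holds ETS letters near its end. The Cox6a1 window (chr5:115348959-115349208, minus strand) holds NRF1 letters at 2 places and ETS letters. The Atp5k window (chr5:108434400-108434649, minus strand) holds NRF1 letters, and the Cycs window (chr6:50566570-50566819, minus strand) holds the cAMP response element.
Sdhd: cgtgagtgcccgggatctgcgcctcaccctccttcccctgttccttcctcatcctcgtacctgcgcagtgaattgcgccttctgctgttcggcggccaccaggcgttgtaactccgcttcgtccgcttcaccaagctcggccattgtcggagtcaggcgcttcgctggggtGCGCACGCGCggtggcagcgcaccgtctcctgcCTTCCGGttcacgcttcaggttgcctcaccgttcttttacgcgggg
Uqcrh: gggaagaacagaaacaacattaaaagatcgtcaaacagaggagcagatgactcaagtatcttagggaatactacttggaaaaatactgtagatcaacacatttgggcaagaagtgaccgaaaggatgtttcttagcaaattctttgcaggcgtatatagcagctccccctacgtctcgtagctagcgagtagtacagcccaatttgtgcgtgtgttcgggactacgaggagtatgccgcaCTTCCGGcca
Cox6a1: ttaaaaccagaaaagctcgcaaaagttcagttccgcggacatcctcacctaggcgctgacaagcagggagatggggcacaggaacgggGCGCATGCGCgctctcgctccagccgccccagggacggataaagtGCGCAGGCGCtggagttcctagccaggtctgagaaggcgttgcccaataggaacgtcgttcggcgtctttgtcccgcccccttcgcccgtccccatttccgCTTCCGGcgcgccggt
Atp5k: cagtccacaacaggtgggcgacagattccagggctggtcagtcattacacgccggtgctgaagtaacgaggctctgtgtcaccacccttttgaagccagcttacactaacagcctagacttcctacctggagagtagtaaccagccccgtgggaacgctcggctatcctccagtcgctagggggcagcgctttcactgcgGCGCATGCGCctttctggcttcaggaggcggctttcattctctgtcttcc
Cycs: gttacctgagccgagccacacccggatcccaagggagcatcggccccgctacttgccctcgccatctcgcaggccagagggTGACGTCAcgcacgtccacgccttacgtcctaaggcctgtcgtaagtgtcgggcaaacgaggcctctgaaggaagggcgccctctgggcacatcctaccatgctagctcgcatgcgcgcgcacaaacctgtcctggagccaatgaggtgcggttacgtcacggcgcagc

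In complex II, 3 subunits had differences above 0 and 1 below. Sdhd, a membrane anchor of the complex, read 8.88, 8.91 and 8.91 on the arrays labelled Hspa4-/-, against 8.81, 8.70 and 8.67 on the wild-type arrays. All arrays labelled Hspa4-/- lay above all wild-type arrays, and the array labelled replicate 1 lay with its label. The difference was 0.18 (SE 0.066; limma, adjusted p = 0.358), or 0.19 (SE 0.073; limma, adjusted p = 0.282) with 5 arrays. Sdhb, the iron-sulphur subunit, read 8.75, 8.67 and 8.72 on the arrays labelled Hspa4-/-, against 8.51, 8.65 and 8.51 in wild type. The groups did not overlap, but wild-type replicate 2 came close to the lowest array labelled Hspa4-/-. Sdha, the flavoprotein that oxidises succinate, read 10.89, 10.80 and 10.96 against 11.11, 10.89 and 11.08 in wild type, so that the groups overlapped, with a difference of −0.14 (SE 0.080; limma, adjusted p = 0.571). Sdhc, the other membrane anchor, differed by 0.11 (SE 0.10; limma, adjusted p = 0.754). The median of the 4 genes was 0.14 with 6 arrays and 0.13 with 5.

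In complex III a small structural subunit had the highest difference of the 50 genes, and the electron-carrying subunits had differences near 0. Uqcrq, a small subunit bound at the membrane part of the complex, read 9.98, 10.00 and 9.90 on the arrays labelled Hspa4-/-, against 9.42, 9.83 and 9.31 in wild type. The arrays labelled Hspa4-/- lay close together, and wild-type replicate 2 lay nearer to them than to the other wild-type arrays. The mean was 9.96 ± 0.055 on the arrays labelled Hspa4-/- and 9.52 ± 0.28 in wild type (SD, n = 3 each), a log2 difference of 0.44 or 1.36-fold (SE 0.12; limma, adjusted p = 0.249). With 5 arrays the difference was 0.43 (SE 0.14; limma, adjusted p = 0.205).

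Uqcrh, the hinge subunit that helps cytochrome c dock, depended on the array whose Hspa4 goes against its label. It read 8.65, 9.07 and 8.98 on the arrays labelled Hspa4-/-, against 8.66, 8.78 and 8.64 in wild type. Replicate 1 lay among the wild-type arrays and replicates 2 and 3 above all of them. The difference was 0.21 (SE 0.11; limma, adjusted p = 0.521) with 6 arrays and 0.33 (SE 0.077; limma, adjusted p = 0.0999) with 5. The core protein gene Uqcrc1 was placed likewise, at 11.96, 12.21 and 12.21 against 11.95, 12.04 and 12.01 in wild type. Its difference was 0.13 (SE 0.082; limma, adjusted p = 0.638) with 6 arrays and 0.21 (SE 0.068; limma, adjusted p = 0.206) with 5.

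Among the electron-carrying subunits of complex III, Cyc1, which carries the haem of cytochrome c1, differed by 0.023 (SE 0.065) and the Rieske iron-sulphur protein gene Uqcrfs1 by 0.0042 (SE 0.072). The second core protein gene, Uqcrc2, differed by −0.0090 (SE 0.085), and Uqcr10 by 0.13 (SE 0.089; limma, adjusted p = 0.676). The median of the 7 genes was 0.13 with 6 arrays and 0.12 with 5, and 6 of the 7 were above 0 in both.

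Cycs, the somatic cytochrome c gene, read lower, unlike most genes of the complexes it joins. It read 6.44, 6.50 and 6.67 on the arrays labelled Hspa4-/-, against 7.15, 6.83 and 6.71 in wild type. The groups did not overlap, although the gap between the nearest arrays was small and the wild-type arrays spread widely. The mean was 6.54 ± 0.12 on the arrays labelled Hspa4-/- and 6.89 ± 0.23 in wild type (SD, n = 3 each). The difference was −0.36 (SE 0.11; limma, adjusted p = 0.289), or −0.31 (SE 0.12; limma, adjusted p = 0.296) with 5 arrays. Mouse Cycs has many processed pseudogene copies, and the files do not say which probes are shared with them, so its value is uncertain in that respect. Shared probes are not stated for the other genes either.

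**Figure D3:**
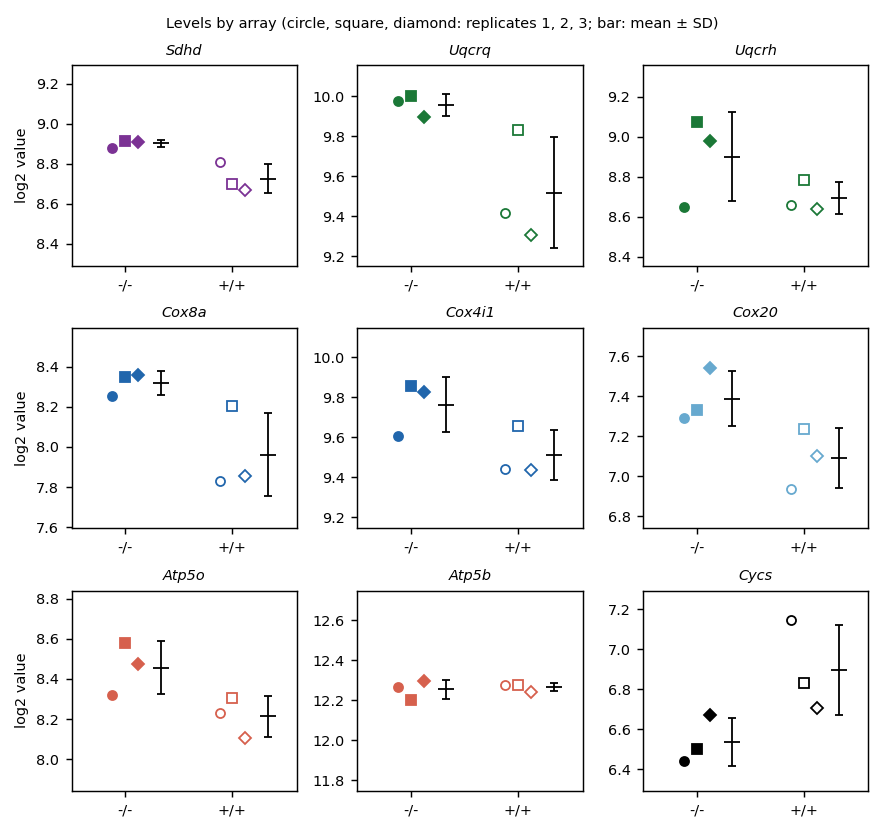
Log2 values of 9 genes by array, with the arrays labelled Hspa4-/- as filled points on the left of each panel and the wild-type arrays as open points on the right. Circles, squares and diamonds are replicates 1, 2 and 3, and bars are mean ± SD (n = 3); every panel spans the same range. Wild-type replicate 2 is the highest wild-type array for Uqcrq, Cox8a and Cox4i1, and Atp5b is level across arrays.

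In complex IV, 14 of the 17 subunit genes were above 0 with 6 arrays and 13 with 5, with medians of 0.13 and 0.11. Cox8a, the form of the smallest subunit found in most tissues, read 8.25, 8.35 and 8.36 on the arrays labelled Hspa4-/-, against 7.83, 8.20 and 7.86 in wild type. All arrays labelled Hspa4-/- lay above the wild-type arrays, of which replicate 2 was much the closest. The difference was 0.36 (SE 0.10; limma, adjusted p = 0.256), or 0.39 (SE 0.11; limma, adjusted p = 0.166) with 5 arrays. Cox4i1, the common form of a subunit involved in ATP regulation of the enzyme, read 9.60, 9.85 and 9.83 against 9.44, 9.66 and 9.44 in wild type. Replicate 1 of the arrays labelled Hspa4-/- lay below wild-type replicate 2, and the other arrays labelled Hspa4-/- lay above all wild-type arrays. Its difference was 0.25 (SE 0.092; limma, adjusted p = 0.350) with 6 arrays and 0.33 (SE 0.086; limma, adjusted p = 0.132) with 5.

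Cox6b1, a subunit on the intermembrane side that links the monomers of the dimer, read 8.95, 9.11 and 8.98 on the arrays labelled Hspa4-/-, against 8.69, 8.99 and 8.62 in wild type. Wild-type replicate 2 lay above replicates 1 and 3 of the other group, and the difference was 0.25 (SE 0.10; limma, adjusted p = 0.406). Cox7b, another small subunit, differed by 0.15 (SE 0.10) with 6 arrays and by 0.24 (SE 0.092; limma, adjusted p = 0.277) with 5. The nuclear subunits Cox5a and Cox5b, which contact the mitochondrially encoded core, differed by only 0.021 (SE 0.084) and −0.036 (SE 0.065). Cox7a2l, which is known to hold complexes III and IV together in supercomplexes, differed by 0.19 (SE 0.092; limma, adjusted p = 0.491).

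Some complex IV subunits have a muscle form and a form common to most tissues. Cox6a2, the form of heart and skeletal muscle, read 11.06, 11.28 and 10.99 on the arrays labelled Hspa4-/-, against 10.72, 10.97 and 10.80 in wild type. The groups were apart by a narrow margin, with a difference of 0.28 (SE 0.10; limma, adjusted p = 0.321), or 0.30 (SE 0.11; limma, adjusted p = 0.245) with 5 arrays. Its partner in other tissues, Cox6a1, read 7.22, 7.48 and 7.39 against 7.05, 7.32 and 7.10 in wild type, where wild-type replicate 2 lay inside the other group. That difference was 0.21 (SE 0.094; limma, adjusted p = 0.446), or 0.28 (SE 0.093; limma, adjusted p = 0.205) with 5 arrays. The muscle form Cox8b read 9.81, 9.96 and 9.60 against 9.40, 9.79 and 9.32 in wild type, which overlap, and its difference was 0.29 (SE 0.13; limma, adjusted p = 0.450). For the pair of Cox7a1, the muscle form, and Cox7a2, the differences were 0.018 (SE 0.091) and −0.042 (SE 0.097).

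The log2 ratio of the members of a pair was taken on each array as a description of the balance of their signals. Between the groups the ratio of Cox6a2 to Cox6a1 differed by 0.066, that of Cox7a1 to Cox7a2 by 0.060 and that of Cox8b to Cox8a by −0.069. For Cox4i2, a form known from lung, over Cox4i1 it differed by −0.23, and for Cox6b2, known from testis, over Cox6b1 by −0.25. The groups overlapped in all 5 ratios with 6 arrays. With 5 arrays the differences were 0.017, 0.033, −0.11, −0.35 and −0.32, in the same order of pairs. For Cox4i2 over Cox4i1 the overlap came from the array labelled Hspa4-/- replicate 1 alone. Without it both remaining arrays labelled Hspa4-/- lay below all wild-type arrays, and the same held, by a hair, for Cox6b2 over Cox6b1. The ratios were not tested. Cox4i2 itself differed by 0.018 (SE 0.075) and Cox6b2 by −0.0052 (SE 0.071) with 6 arrays, against 0.25 for Cox4i1 and 0.25 for Cox6b1. These ratios thus restate the differences of Cox4i1 and Cox6b1. Cox6b2 also averaged 6.18 in both groups, under the median level of all named genes (6.45), so its ratio says little about forms.

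The complex IV assembly factors were split, with 5 of 9 above 0 and 4 below in both forms of the comparison, and medians of 0.15 with 6 arrays and 0.16 with 5. Cox20, a chaperone for a mitochondrially encoded catalytic subunit, read 7.29, 7.33 and 7.54 on the arrays labelled Hspa4-/-, against 6.94, 7.24 and 7.10 in wild type. The groups did not overlap, and the difference was 0.30 (SE 0.10; limma, adjusted p = 0.295), or 0.34 (SE 0.10; limma, adjusted p = 0.181) with 5 arrays. Cox10, which makes a precursor of haem A, read 8.47, 8.35 and 8.40 against 8.15, 8.32 and 8.17 in wild type. The nearest arrays of the groups were wild-type replicate 2 and Hspa4-/- replicate 2, and the difference was 0.19 (SE 0.072; limma, adjusted p = 0.366).

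Among the factors for copper delivery, the chaperone Cox17 differed by 0.17 (SE 0.082; limma, adjusted p = 0.489) with 6 arrays and by 0.24 (SE 0.076; limma, adjusted p = 0.196) with 5, and its relative Cox19 by 0.15 (SE 0.080; limma, adjusted p = 0.521) and 0.23 (SE 0.074; limma, adjusted p = 0.207). Cox11, which inserts copper into the catalytic core, differed by −0.079 (SE 0.070). Cox18, which inserts a catalytic subunit into the membrane, differed by 0.18 (SE 0.094; limma, adjusted p = 0.520). Cox14, needed for the synthesis and early assembly of the largest catalytic subunit, read lower. Its values were 8.49, 8.19 and 8.42 on the arrays labelled Hspa4-/-, against 8.57, 8.49 and 8.61 in wild type. Replicate 1 of the arrays labelled Hspa4-/- just reached the lowest wild-type array. The difference was −0.19 (SE 0.086; limma, adjusted p = 0.461) with 6 arrays and −0.25 (SE 0.087; limma, adjusted p = 0.240) with 5. Cox15, the haem A synthase, and Cox16 differed by −0.12 (SE 0.068) and −0.13 (SE 0.084).

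In complex V, all 7 genes listed here from the membrane part and the peripheral stalk were above 0 in both forms of the comparison, with medians of 0.11 and 0.15. The symbols found on the array do not cover every subunit of these parts. The 5 genes of F1, the catalytic head together with its rotor, had medians of 0.046 and 0.050. The difference between these parts was not tested. Atp5o, the stalk protein that confers oligomycin sensitivity, read 8.32, 8.58 and 8.47 on the arrays labelled Hspa4-/-, against 8.23, 8.31 and 8.10 in wild type. The groups were just apart, since replicate 1 of the arrays labelled Hspa4-/- lay only slightly above wild-type replicate 2. The difference was 0.24 (SE 0.086; limma, adjusted p = 0.332), or 0.31 (SE 0.083; limma, adjusted p = 0.137) with 5 arrays.

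Atp5k, the membrane subunit e that helps ATP synthase form dimers, read 7.69, 7.98 and 8.04 on the arrays labelled Hspa4-/-, against 7.47, 7.82 and 7.59 in wild type. Wild-type replicate 2 lay above replicate 1 of the arrays labelled Hspa4-/-. Its difference was 0.27 (SE 0.11; limma, adjusted p = 0.413) with 6 arrays and 0.38 (SE 0.10; limma, adjusted p = 0.145) with 5. Atp5j, a peripheral stalk subunit, read 10.54, 10.63 and 10.65 against 10.52, 10.47 and 10.38 in wild type, with no overlap and a difference of 0.15 (SE 0.069; limma, adjusted p = 0.466). Atp5j2 and Atp5pb, which belong to the membrane part and the peripheral stalk, differed by 0.10 (SE 0.082) and 0.071 (SE 0.064).

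F1 held both a large difference, in a rotor gene, and genes near 0. Atp5d, the delta subunit of the rotor, read 10.78, 10.88 and 11.28 on the arrays labelled Hspa4-/-, against 10.49, 10.79 and 10.67 in wild type. A single array, labelled Hspa4-/- replicate 3, was far above the rest, and wild-type replicate 2 overlapped the other group. The difference was 0.33 (SE 0.13; limma, adjusted p = 0.377) with 6 arrays and 0.43 (SE 0.13; limma, adjusted p = 0.174) with 5. Atp5b, which carries the catalytic sites, read 12.27, 12.20 and 12.30 against 12.28, 12.28 and 12.24 in wild type, a difference of −0.0098 (SE 0.062). Atp5a1, its alpha partner, and Atp5c1, the gamma subunit of the rotor, differed by −0.034 (SE 0.060) and 0.046 (SE 0.072). The median of all 12 listed genes of complex V was 0.091 with 6 arrays and 0.094 with 5.

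Wild-type replicate 2 lay near the arrays labelled Hspa4-/- in many of the 50 genes. On each array the log2 values were set against the wild-type mean of each gene. The median over the 50 genes was 0.059, 0.11 and 0.13 on the arrays labelled Hspa4-/-, against −0.047, 0.079 and −0.016 on the wild-type arrays. Wild-type replicate 2 thus lay above the array labelled Hspa4-/- replicate 1. It was the highest wild-type array in 30 of the 50 genes, against 32.5% of all named genes. The SD over all probe sets was 1.20, 1.25 and 1.27 on the arrays labelled Hspa4-/- and 1.23, 1.25 and 1.19 on the wild-type arrays. With quantile normalisation, which gives all arrays the same spread, the median was 0.098 with 6 arrays and 0.072 with 5.

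**Figure D4:**
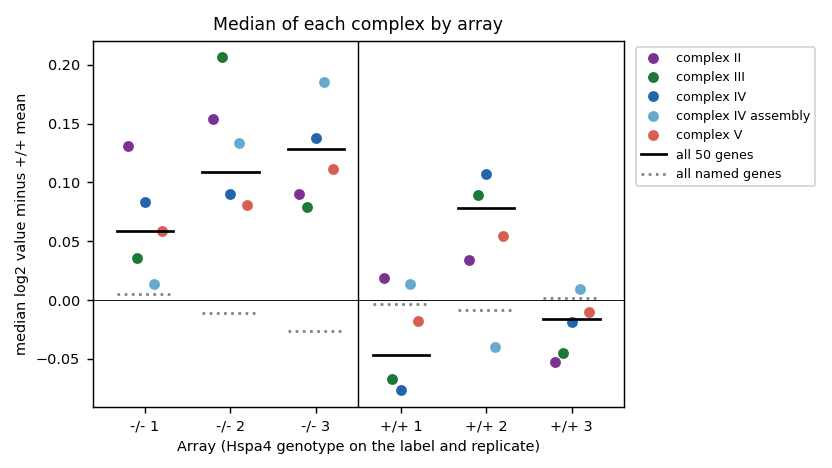
For each array, coloured points are the median of each complex after the wild-type mean of each gene is subtracted, in log2 units; the solid line is the median of all 50 genes and the dotted line that of all named genes. The solid line is 0.059, 0.11 and 0.13 on the arrays labelled Hspa4-/- and −0.047, 0.079 and −0.016 on the wild-type arrays.

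Leaving out wild-type replicate 2 made calls. On the 5 arrays left, 2 of the 50 genes passed, both higher: Uqcrq (0.60; limma, adjusted p = 0.0370) and Cox8a (0.48; limma, adjusted p = 0.0445), where 0.553% of all named genes passed. Without the array labelled Hspa4-/- replicate 1 as well, 8 of the 50 passed, where 4.32% of all named genes did. These were Uqcrq, Uqcrh, Cox8a, Cox4i1, Cox6b1, Cox6a1, Cox18 and Atp5k, all higher, with differences between 0.33 and 0.58 and adjusted p between 0.0123 and 0.0486 (limma). Leaving out any other single array gave 0 of the 50 with either 6 or 5 arrays at the start. Of all 20239 named genes, 0 to 89 passed with 6 at the start and 2 to 25 with 5. The 8 calls rest on 2 arrays in each group.

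Heart muscle markers also read higher on the arrays labelled Hspa4-/-. All 10 of the cardiomyocyte markers listed were above 0 with 6 and with 5 arrays, with medians of 0.18 and 0.20. In both forms 5 of 10 were higher at an unadjusted p under 0.05, where 5.64% and 8.55% of all named genes were. These markers had a high median level (11.87), and among the top 5060 genes by level 12.3% and 19.5% were higher. The summed linear signal of the 10 markers was 47433, 47469 and 49754 on the arrays labelled Hspa4-/-, against 46123, 44447 and 43384 on the wild-type arrays. The groups did not overlap, and wild-type replicate 2, high in many of the 50 genes, was not the highest wild-type array here. Of 8 macrophage markers 7 were below 0 with 6 arrays and 6 with 5, and 4 were lower at an unadjusted p under 0.05 in both forms, where 5.53% and 6.36% of all named genes were, with a summed signal of 1399 to 1520 on the arrays labelled Hspa4-/- and 1626 to 1719 in wild type. In ventricle RNA, fewer cells of a type and less RNA per cell cannot be told apart, and the part of cell make-up in the differences was not tested. The summed signal of the fibroblast markers was 4039 to 4616 on the arrays labelled Hspa4-/- and 4028 to 4324 in wild type, which overlap. The sums of the endothelial, smooth muscle, erythroid and adipocyte lists overlapped too. The sums of the skeletal muscle list did not overlap, at 1843 to 1918 on the arrays labelled Hspa4-/- and 1612 to 1728 in wild type. Of its 8 genes only Ckm, which heart muscle also expresses, was higher without overlap with 6 arrays, and the list's median was −0.0050 with 6 arrays and −0.026 with 5. The sums of the atrial list did not overlap either, at 1035 to 3203 on the arrays labelled Hspa4-/- and 662 to 857 in wild type. Most of that sum is Nppa, the gene of atrial natriuretic peptide, since no other gene of the list read above 7.72 on any array. Of its 5 genes only Nppa was free of overlap, with 6 and with 5 arrays. Nppa differed by 1.80 (SE 0.40; limma, adjusted p = 0.213) with 6 arrays and by 2.32 (SE 0.24; limma, adjusted p = 0.0127) with 5. The list's median was 0.15 with 6 arrays and 0.19 with 5, with 4 genes above 0 and 1 below in both.

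Other genes of the same pathway gave 0 calls with either 6 or 5 arrays (limma), where 0% and 0.440% of all named genes passed. Of 13 assembly factors of complexes II, III and V outside the 50, 6 were above 0 with 6 arrays and 7 with 5, with medians of −0.013 and 0.0028. The complex II factor Sdhaf4 read higher by 0.17 (SE 0.068; limma, adjusted p = 0.394), and the difference of the complex III factor Uqcc3 was −0.17 (SE 0.073; limma, adjusted p = 0.440). Of 12 further complex IV assembly and copper genes, 6 were above 0 with 6 arrays and 5 with 5, with medians of −0.0043 and −0.0082, among them Coa5 (−0.24, SE 0.10; limma, adjusted p = 0.406) and Fastkd5 (−0.12, SE 0.063; limma, adjusted p = 0.541). At an unadjusted p under 0.05 the assembly factors of complexes II, III and V had 1 gene higher and 1 lower with 6 arrays and 1 and 0 with 5. The further complex IV genes had 0 higher and 1 lower with 6 arrays and 1 and 1 with 5. Over all named genes 5.64% were higher and 5.53% lower with 6 arrays, and 8.55% and 6.36% with 5.

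Of 14 regulators of nuclear respiratory genes, 8 were above 0 with 6 arrays and 12 with 5, with medians of 0.017 and 0.042. At an unadjusted p under 0.05, 2 were higher with 6 arrays and 1 with 5, where 5.64% and 8.55% of all named genes were. None were lower in both, where 5.53% and 6.36% were. Ppargc1b, a coactivator of respiratory genes, read 8.74, 8.93 and 8.76 on the arrays labelled Hspa4-/-, against 8.36, 8.69 and 8.39 in wild type. The groups did not overlap, and wild-type replicate 2 again lay nearest to the other group. Its difference was 0.33 (SE 0.10; limma, adjusted p = 0.272), and that of Esrra, which encodes an estrogen-related receptor, was 0.16 (SE 0.072; limma, adjusted p = 0.442). Ppargc1a, the better known coactivator of that family, differed by −0.16 (SE 0.075; limma, adjusted p = 0.465) and was named after its values were seen.

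The 36 subunit genes of complex I, which passes electrons from NADH to ubiquinone, had a median of 0.11 with 6 arrays and 0.14 with 5, with 29 and 31 above 0, and 8 and 12 higher and 0 and 0 lower at an unadjusted p under 0.05. The 76 genes of the mitochondrial ribosome had medians of 0.043 and 0.067, with 2 and 13 higher and 4 and 5 lower, and 0 and 1 passed the adjusted threshold (limma). Over all named genes, again, 5.64% and 8.55% were higher and 5.53% and 6.36% lower, and 0% and 0.440% passed the adjusted threshold. The differences between these sets and the 50 genes were not tested.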

How the data were processed

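RNA from heart ventricles was measured on 6 arrays, 3 for each genotype. The authors deposited log2 values, 1 for each probe set and array. The submitters' processing notes name R 2.13.0 and affy. The sources used here do not state the background correction, normalisation or probe summary. Signal over background is therefore unknown, and precision is limited by the number of arrays. Values were kept as deposited. Of 21225 probe sets, 20239 carried 1 gene symbol in the platform annotation, 986 none and 0 several.

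Groups came from the labels. With limma 3.58.1 in R 4.3.3, a 2-group model (lmFit, then eBayes) was fitted to all 20239 genes together, p-values were adjusted by Benjamini-Hochberg, and the threshold was 0.05. The fit was repeated without the array labelled Hspa4-/- replicate 1. On simulated data for the 6-array comparison over 20239 genes, 94% of genes changed by 1 on the log2 scale were recovered. The respiratory genes described here differed only by −0.36 to 0.44 with 6 arrays. Sizes below 1 were not simulated, so recovery of changes as small as theirs is unknown. In the measured data even Hspa4, at −2.01, did not pass with 6 arrays (limma, adjusted p = 0.263). SE is limma's moderated SE. Named in full were, for each complex, the 4 genes with the smallest unadjusted p with 6 arrays, the next 2 with 5 arrays and the flattest gene, the isoform pairs, and up to 2 genes of each other list. Values of 8 further genes (Cyc1, Cox5a, Cox5b, Cox7a2l, Cox15, Cox16, Atp5a1 and Atp5c1) were added after they were seen. Others are given by counts. The genes and lists were chosen with earlier results of these data known. Alternatives were low-value filters, quantile normalisation, subtraction of array medians, array weights, a mean-variance trend, a replicate block and leaving out each array.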

Additional observations from a re-analysis of the deposited data

How the results depend on the processing

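With either 6 or 5 arrays, 0 of the 50 genes passed under the low-value filters, quantile normalisation, subtraction of array medians, array weights, the mean-variance trend and the replicate block. Of all named genes kept in these settings, 0 to 115 passed with 6 arrays and 35 to 321 with 5, the most with array weights in both. Leaving out 1 array gave 0 to 2 passing genes of the 50 with 6 arrays, where 0 to 112 of all 20239 named genes passed. It gave 0 to 8 with 5 arrays, where 2 to 875 of all named genes did. Calls among the 50 came only where wild-type replicate 2 was left out. The median over the 50 genes stayed between 0.072 and 0.15 in all settings. Genes above 0 numbered 31 to 39. With 1 array of 6 left out, 4 to 17 genes were higher at an unadjusted p under 0.05. Over all named genes 2.88% to 8.55% were. It gave 1 to 3 lower, where 3.29% to 6.36% were. Leaving out 1 of 5 gave 9 to 22 higher, where 5.33% to 11.8% were, and 0 to 4 lower, where 3.95% to 8.57% were. With 6 arrays, array weights gave 22 higher and 4 lower, where 9.52% and 8.58% of all named genes were. Subtracted medians and the replicate block each gave 2 lower, where 5.97% and 4.33% were. With 5 arrays, subtracted medians and the block each gave 1 lower, where 5.67% and 4.15% were. Leaving out 1 array of 6 gave medians between 0.088 and 0.18 for complex II, 0.073 and 0.15 for III, 0.080 and 0.12 for IV, 0.097 and 0.16 for the assembly factors and 0.075 and 0.13 for V. With 5 arrays they lay between 0.080 and 0.18 for complex II, 0.079 and 0.21 for complex III, 0.081 and 0.13 for complex V and 0.13 and 0.21 for the assembly factors. With 5 arrays the filter on the lowest 50% of genes gave 0.21 for complex IV, quantile normalisation gave 0.061 for complex III, 0.055 for complex V and 0.10 for the assembly factors, and the replicate block gave 0.080 for complex II and 0.13 for the assembly factors. The cause was not tested. Same-numbered arrays correlated at −0.17, 0.09 and −0.25 in their deviations from group means, and differently numbered arrays at −0.16 to 0.33. With 3 arrays in each group, these values cannot decide whether the replicate numbers pair the arrays. Hspa4 differed by −2.54 with array weights (limma, adjusted p = 0.0488) and by −2.89 to −1.54 when 1 array was left out.

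Genes with differences near 0 changed sign. With 6 arrays, quantile normalisation gave −0.0032 for Uqcrfs1, 0.0085 for Cox6b2 and −0.010 for Cox4i2, subtracted medians gave −6.13e-04 for Uqcrfs1, and array weights gave 0.043 for Uqcrc2 and −0.011 for Cox5a. With 5 arrays, quantile normalisation gave −0.021 for Cox7a2, −0.031 for Cox5a and 0.0080 for Cox5b, array weights gave 0.0066 for Uqcrfs1 and 0.0093 for Cox4i2, and the block gave −0.014 for Cox7a1, −0.016 for Cox7a2, −0.021 for Cyc1 and −0.016 for Cox5a. Leaving out 1 array of 6 gave −0.059 to 0.085 for Uqcrc2, −0.029 to 0.060 for Uqcrfs1, −0.040 to 0.034 for Cox6b2, −0.030 to 0.017 for Atp5b, −0.069 to 0.080 for Cox7a1, −0.13 to 0.040 for Cox7a2, −0.013 to 0.057 for Cyc1, −0.044 to 0.092 for Cox5a and −0.031 to 0.073 for Cox4i2. Leaving out 1 of 5 gave −0.052 to 0.044 for Uqcrfs1, −0.084 to 0.0073 for Cox6b2, −0.064 to 0.031 for Atp5b, −0.014 to 0.14 for Cox7a1, −0.058 to 0.14 for Cox7a2, −0.021 to 0.049 for Cyc1, −0.12 to 0.15 for Cox5a, −0.032 to 0.021 for Cox5b and −0.064 to 0.040 for Cox4i2. Of the 44 genes named with values in the complexes, 35 kept their direction in every setting run with 6 arrays and 35 with 5. Among them the size could still move, as in 0.039 to 0.23 for Sdhc, 0.054 to 0.24 for Cox7b and 0.032 to 0.15 for Atp5j2 when 1 array of 6 was left out. A planned pseudocount was not run, since the values were already in log2.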

Other observations

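Enzymes of the citric acid cycle, which feeds complex II, were listed apart from the 50 genes. Of 12 measured genes, 9 had a difference above 0 with 6 arrays and 8 with 5, with medians of 0.067 and 0.097. Among them 0 passed in either (limma), where 0% of all named genes did with 6 arrays and 0.440% with 5. At an unadjusted p under 0.05 there were 0 higher and 2 lower with 6 arrays, where 5.64% and 5.53% of all named genes were. With 5 arrays there were 2 higher and 1 lower, where 8.55% and 6.36% were. Sucla2, a subunit of succinyl-CoA synthetase, differed by −0.21 (SE 0.070; limma, adjusted p = 0.311), and Idh3a, a subunit of isocitrate dehydrogenase, by −0.19 (SE 0.075; limma, adjusted p = 0.385). Of 13 mitochondrial carrier, porin and import genes, 7 were above 0 with 6 arrays and 9 with 5, with medians of 0.063 and 0.044. Of these 13 genes 0 passed in either (limma), against the same 0% and 0.440% of all named genes. At an unadjusted p under 0.05, 1 was higher and 1 lower with 6 arrays, where 5.64% and 5.53% of all named genes were. With 5 arrays 4 were higher and 0 lower, where 8.55% and 6.36% were. The import channel gene Tomm40 read higher by 0.34 (SE 0.12; limma, adjusted p = 0.323), and Hspd1, a mitochondrial chaperonin gene, differed by −0.23 (SE 0.10; limma, adjusted p = 0.427).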
